A study of Mus musculus with 8 samples.

Results

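The interleukin 1 system and interleukin 6 were followed through 9 genes: Il1a and Il1b, which encode the 2 agonists of the interleukin 1 receptor; Il1rn, which encodes the receptor antagonist; Il1r1, Il1r2 and Il1rap, which encode the signalling receptor, the decoy receptor and their shared accessory chain; Il18, a related cytokine; Casp1, the protease that matures interleukin 1 beta and interleukin 18; and Il6. The genes were taken by symbol, and all probe sets that the platform annotation gives to one of them alone were used. That gave 13 of 22626 probe sets on the array, for 9 of 12393 named genes. Each gene passed the filter on dim values, which asked for an intensity of at least 38.4 on at least 2 of the 8 arrays. Of the 13 probe sets, 12 did.

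Interleukin 1 is an early alarm cytokine of injured tissue. It binds its receptor together with the accessory chain, signals through MYD88 and NF-kappaB, and is held in check by the secreted antagonist and by the decoy receptor, which binds the ligand without signalling. Interleukin 6 is a classical product of that pathway, acts through gp130 and STAT3, and is made in damaged muscle by macrophages, fibroblasts, endothelial cells and muscle fibres.

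The study measured RNA of cells sorted for CD45, the pan-leukocyte surface protein, and Sca1, a surface protein of stem and progenitor cells that many activated blood cells and endothelial cells also carry. The mice were C57BL/6, aged 6 to 8 weeks, and each of 4 groups had 2 arrays of the Affymetrix Mouse 430A type. The groups were cells from cardiotoxin-injured muscle after bone marrow transplantation, cells from cardiotoxin-injured muscle with no transplant stated, cells from uninjured muscle and cells from bone marrow. Cardiotoxin is a snake venom toxin that kills muscle fibres and sets off their regeneration. They are called transplanted injured muscle, untransplanted injured muscle, uninjured muscle and bone marrow. The interval between injury and sort, the transplant donors, whether host cells remained in the transplanted mice, and whether the 2 arrays of a group came from separate animals are left unstated by the labels, so p-values measure only the spread between arrays, which may be technical.

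Ptprc, the gene of CD45, was at 6644 and 5204 in transplanted injured muscle, 5976 and 6996 in untransplanted injured muscle, 6476 and 4924 in uninjured muscle, and 5007 and 5727 in bone marrow. Its level lay between 4924 and 6996 on the 8 arrays, with untransplanted injured muscle above bone marrow and overlap in the other pairs of groups; the gene of Sca1 was not analysed here. The arrays differed along the line of injury in the ratio of 3' to 5' control probe sets. RNA integrity refers to this ratio throughout, since no direct measure of it was given. The ratio of the 3' to the 5' control probe set of Gapdh was 0.808 to 0.882 on the 4 injured arrays, against 13.6 to 46.9 on the 2 uninjured muscle arrays and 10.7 to 24.4 on the 2 bone marrow arrays. For beta-actin it was 1.18 to 1.23 on the injured arrays, against 10.1 to 19.0 in uninjured muscle and 5.68 to 5.75 in bone marrow. RNA integrity and injury therefore cannot be told apart in any comparison of injured with uninjured muscle or with bone marrow. Transplanted and untransplanted injured muscle had like ratios of both controls. Uninjured muscle and bone marrow both had high ratios, which overlapped for Gapdh but were higher in uninjured muscle for beta-actin, without overlap; the part of RNA integrity in that comparison was not tested. These are bulk samples of sorted cells, in which fewer cells of a type and less RNA per cell cannot be told apart. Intensities are compared between arrays for one probe set only, never between genes. A difference was called where its Benjamini-Hochberg adjusted p was under 0.05 in limma, with one model on all 8 arrays, and log2 fold changes are on the log2(intensity + 4) scale.

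Promoters of the 4 cytokine genes and of the antagonist are shown because these are the genes on which the results turn, and because NF-kappaB, AP-1 and C/EBP are the textbook regulators of inflammatory cytokine genes. RefSeq windows of the GRCm38.p6 build, from 250 bases before to 50 bases after the annotated start, were found for 9 of the 9 genes, 12 windows in all. The windows printed are those of Il1a at chr2:129309923-129310222 on the minus strand, of Il1b at chr2:129371090-129371389 on the minus strand, of Il6 at chr5:30012864-30013163 on the plus strand, of Il18 at chr9:50554450-50554749 on the plus strand, and of the upstream of 3 annotated starts of Il1rn at chr2:24336610-24336909 on the plus strand. Capitals mark matches to the motifs named after the sequences (Il18 has none), which run 5' to 3' along the gene's strand.
Il1a: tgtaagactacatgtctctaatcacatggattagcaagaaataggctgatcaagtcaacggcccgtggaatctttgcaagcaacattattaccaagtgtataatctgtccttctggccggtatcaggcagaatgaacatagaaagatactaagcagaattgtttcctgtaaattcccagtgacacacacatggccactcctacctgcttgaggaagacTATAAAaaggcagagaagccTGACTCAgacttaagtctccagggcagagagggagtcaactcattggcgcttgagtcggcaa
Il1b: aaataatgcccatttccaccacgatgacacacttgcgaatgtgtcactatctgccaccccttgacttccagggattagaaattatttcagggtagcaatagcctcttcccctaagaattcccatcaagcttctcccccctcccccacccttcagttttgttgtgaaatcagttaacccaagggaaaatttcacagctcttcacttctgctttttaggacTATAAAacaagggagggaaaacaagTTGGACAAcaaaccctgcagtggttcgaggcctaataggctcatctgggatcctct
Il6: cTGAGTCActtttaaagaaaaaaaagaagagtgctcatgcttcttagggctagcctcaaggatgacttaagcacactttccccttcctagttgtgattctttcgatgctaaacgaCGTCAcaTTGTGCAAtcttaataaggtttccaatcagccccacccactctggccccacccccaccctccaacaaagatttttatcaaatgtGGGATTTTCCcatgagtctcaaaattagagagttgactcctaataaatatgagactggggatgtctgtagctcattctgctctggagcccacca
Il18: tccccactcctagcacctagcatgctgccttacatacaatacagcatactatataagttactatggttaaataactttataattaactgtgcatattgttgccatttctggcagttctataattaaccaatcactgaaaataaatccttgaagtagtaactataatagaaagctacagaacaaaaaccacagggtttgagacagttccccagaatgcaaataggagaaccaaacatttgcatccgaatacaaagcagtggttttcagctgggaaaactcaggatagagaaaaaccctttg
Il1rn: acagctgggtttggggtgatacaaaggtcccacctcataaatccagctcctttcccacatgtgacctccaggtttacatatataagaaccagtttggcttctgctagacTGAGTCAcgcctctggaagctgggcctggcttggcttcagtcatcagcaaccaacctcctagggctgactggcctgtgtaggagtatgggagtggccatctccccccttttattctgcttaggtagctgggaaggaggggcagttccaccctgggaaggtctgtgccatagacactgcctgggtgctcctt

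The motifs searched were the NF-kappaB consensus, TGANTCA for AP-1, TTGNNCAA for C/EBP and the CRE core TGACG, each on both strands, and TATAAA on the sense strand. Il6 held 4 of them: TGAGTCA at -249 to -243, CGTCA, the core read on the other strand, at -135 to -131, TTGTGCAA at -128 to -121 and GGGATTTTCC, the NF-kappaB match, at -44 to -35 from the start. Il1a held TATAAA at -32 to -27 and TGACTCA at -12 to -6. Il1b held TATAAA at -31 to -26 and TTGGACAA from -6 to 2. The upstream window of Il1rn held TGAGTCA at -141 to -135, and its other windows held none of the motifs. Il18, which was higher in injured muscle like Il1b and Il1rn, held none in its window, nor did Casp1, Il1r2 and Il1rap, while Il1r1 held the CRE core in one window and the NF-kappaB consensus in the other. Of 32851 mouse promoter windows of this length, 8.46% held the NF-kappaB consensus, 7.81% the AP-1 motif, 6.4% the C/EBP motif, 20.8% the CRE core and 8.32% TATAAA. A match is a description of letters and not a bound site.

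Across the 4 groups the 9 genes fell into 3 patterns. Il1b, Il1rn and Il18 were several-fold higher in injured than in uninjured muscle, with and without a transplant. Il6 and Il1a were already higher in uninjured muscle than in bone marrow and were not called between untransplanted injured and uninjured muscle; Il6 was lower with the transplant than in uninjured muscle. Il1r1, Il1r2 and Il1rap, the receptor genes, were called in none of the 6 comparisons, and Casp1 in one.

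**Figure D1:**
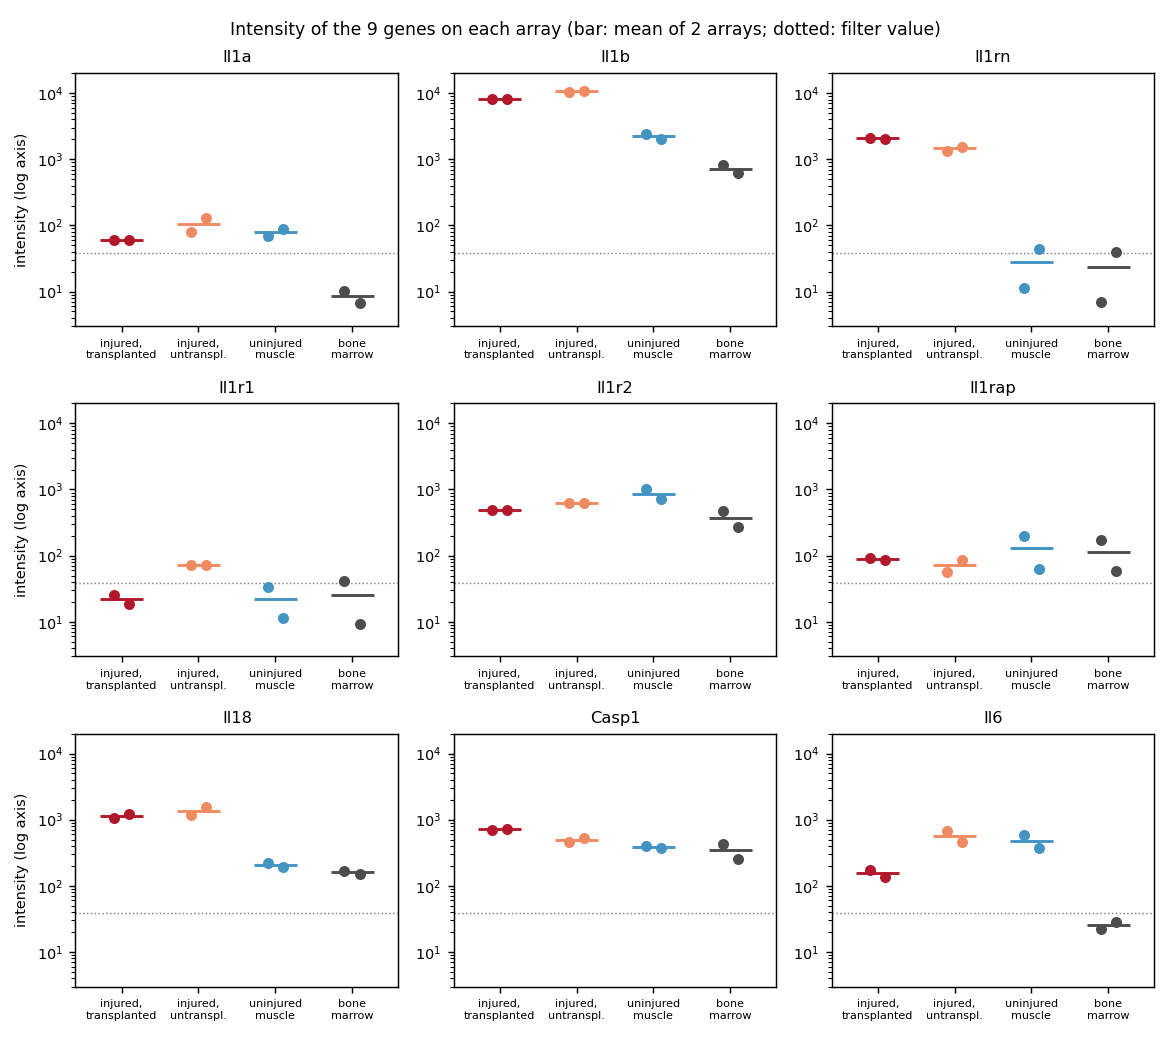
Intensity (log axis) of the 9 genes on each array, in the order transplanted injured muscle, untransplanted injured muscle, uninjured muscle and bone marrow; points are arrays, bars the mean of 2 arrays and the dotted line the filter value of 38.4. Il1b, Il1rn and Il18 are higher on all 4 injured arrays than on the other 4, while Il6 is lowest on the bone marrow arrays and lower with a transplant than in either other muscle group.

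Among the agonists, Il1b, the secreted agonist that needs cleavage to act, had an intensity of 8172 and 8124 in transplanted injured muscle, 10417 and 10831 in untransplanted injured muscle, 2446 and 2056 in uninjured muscle, and 814 and 614 in bone marrow. The injured arrays were the highest, the bone marrow arrays the lowest, and no groups overlapped. Il1b was higher in uninjured muscle than in bone marrow by 1.66 on the log2 scale (SE 0.21, limma adjusted p = 0.00311). It was higher again in untransplanted injured than in uninjured muscle, by 2.24 (SE 0.21, adjusted p = 0.001), with means of 10624 ± 293 and 2251 ± 276 (SD, n = 2 each). Transplanted injured muscle stood 1.86 above uninjured muscle (adjusted p = 0.00105). Both injured groups exceeded bone marrow, by 3.52 with the transplant and 3.90 without (adjusted p = 6.01e-05 and 3.53e-05). The lower Il1b in transplanted than in untransplanted injured muscle, a log2 difference of -0.38 with a 95% interval of -0.87 to 0.10, did not pass the test (adjusted p = 0.739).

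Il1a, the agonist that is active without cleavage and is often held in the cell as an alarm signal, read 59.4 and 61.0 in transplanted injured muscle, 80.5 and 128 in untransplanted injured muscle, 68.1 and 88.8 in uninjured muscle, and 10.1 and 6.80 in bone marrow. Both bone marrow arrays were far below the other 6, which lay between 59.4 and 128, and untransplanted injured and uninjured muscle overlapped. Against the filter value, Il1a was at least 1.93-fold higher in uninjured muscle than in bone marrow (adjusted p = 0.00724). It was at least 2.5-fold higher in untransplanted injured muscle and at least 1.52-fold higher in transplanted injured muscle than in bone marrow (adjusted p = 0.00147 and 0.0042). Injury without a transplant gave a log2 difference of 0.37 from uninjured muscle, with an interval of -0.59 to 1.33 (adjusted p = 0.527). The interval between transplanted and untransplanted injured muscle was -1.68 to 0.24 (adjusted p = 0.775). In a fit on the 4 arrays of uninjured muscle and bone marrow alone, the excess of Il1a in uninjured muscle was no longer called (adjusted p = 0.0596), nor was that of Il1b (adjusted p = 0.109).

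Il1rn, the gene of the secreted and intracellular receptor antagonist, had 3 probe sets, all of them tested. The brightest, 1423017_a_at, read 2127 and 2017 in transplanted injured muscle, 1353 and 1559 in untransplanted injured muscle, 11.4 and 44.3 in uninjured muscle, and 6.90 and 39.7 in bone marrow. The 4 injured arrays were all far above the other 4, and uninjured muscle and bone marrow overlapped. With this probe set Il1rn was higher by 5.74 on the log2 scale in untransplanted injured than in uninjured muscle and by 6.25 in transplanted injured than in uninjured muscle (SE 0.71 for both, limma adjusted p = 0.00209 and 0.00107). The first of the 2 uninjured arrays was under the filter value, as was the first of bone marrow. Those were the arrays with the higher Gapdh ratio in their groups, 46.9 against 13.6 in uninjured muscle and 24.4 against 10.7 in bone marrow. The part of RNA integrity in this was not tested.

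The other 2 probe sets of Il1rn gave the same calls with smaller folds. On 1451798_at the values were 1974 and 1376 in transplanted injured muscle, 1465 and 1426 in untransplanted injured muscle, 182 and 139 in uninjured muscle, and 74.5 and 60.6 in bone marrow. On 1425663_at they were 409 and 390, 527 and 591, 110 and 116, and 92.5 and 47.4 in the same groups. In both, every injured array lay above every array of the other groups. The log2 excess of untransplanted injured over uninjured muscle was 3.15 on 1451798_at and 2.26 on 1425663_at (adjusted p = 0.00117 and 0.00533). The excess of transplanted injured over uninjured muscle was 3.34 and 1.79 on these probe sets (adjusted p = 0.000692 and 0.00959). Transplanted and untransplanted injured muscle were not called apart on any of the 3, and the sign was mixed, with log2 differences of 0.51, 0.19 and -0.48. Uninjured muscle and bone marrow were not called apart on any of them (adjusted p = 0.859, 0.0771 and 0.337).

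**Figure D2:**
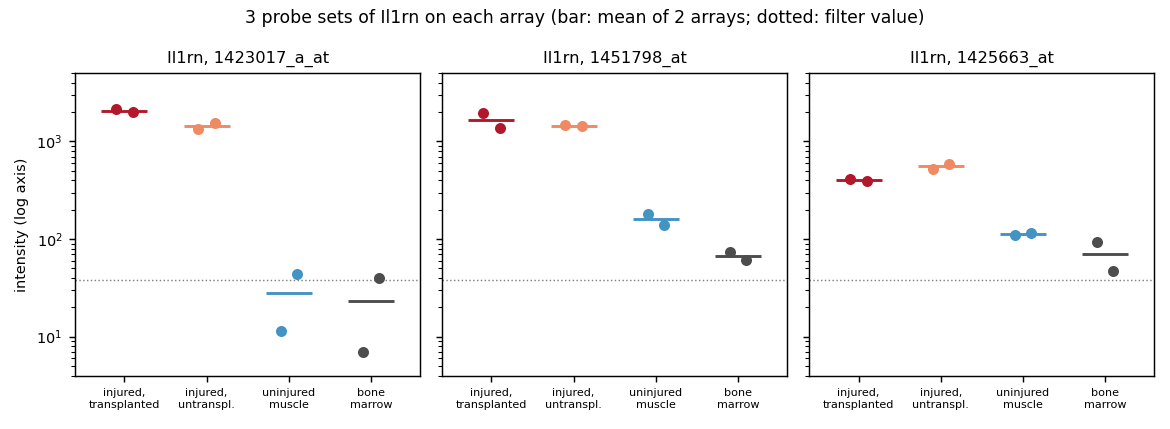
Intensity (log axis) of the 3 probe sets of Il1rn on each array by group; points are arrays, bars the mean of 2 arrays and the dotted line the filter value of 38.4. The 4 injured arrays are above the other 4 on every probe set, and the distance is largest on 1423017_a_at, where one array of uninjured muscle and one of bone marrow are under the filter value.

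Il18, the cytokine that drives interferon-gamma release from lymphocytes, was at 1070 and 1209 in transplanted injured muscle, 1182 and 1540 in untransplanted injured muscle, 222 and 195 in uninjured muscle, and 167 and 151 in bone marrow. The injured groups overlapped each other and were well above the rest. Il18 was higher in untransplanted injured than in uninjured muscle by 2.67 on the log2 scale, and in transplanted injured than in uninjured muscle by 2.43 (SE 0.29 for both, adjusted p = 0.00146 and 0.00118). Over bone marrow the excess was 2.81 with the transplant and 3.05 without (adjusted p = 0.00045 and 0.000326). Uninjured muscle was not called apart from bone marrow, with a log2 difference of 0.38 and an interval of -0.28 to 1.05 (adjusted p = 0.531).

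Casp1, which encodes caspase 1, read 708 and 726 in transplanted injured muscle, 459 and 537 in untransplanted injured muscle, 401 and 379 in uninjured muscle, and 432 and 253 in bone marrow. The transplanted arrays were the highest, and uninjured muscle lay within the range of bone marrow. Only the excess of transplanted injured muscle over bone marrow passed the test, at 1.11 on the log2 scale (SE 0.33, adjusted p = 0.0352). That call was lost without either transplanted array, either untransplanted array or the second bone marrow array, with adjusted p from 0.0713 to 0.158. The difference between untransplanted injured and uninjured muscle was 0.35, with an interval of -0.42 to 1.11. The excess of transplanted injured over uninjured muscle, 0.87 (adjusted p = 0.0763), was called without the first or the second bone marrow array (adjusted p = 0.048 and 0.0457).

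Among the receptors, Il1r2, the decoy receptor that neutrophils and macrophages shed, read 487 and 481 in transplanted injured muscle, 622 and 618 in untransplanted injured muscle, 1006 and 719 in uninjured muscle, and 480 and 271 in bone marrow. Uninjured muscle was the highest and bone marrow the lowest. The excess of uninjured muscle over bone marrow was 1.23 on the log2 scale, with an interval of 0.42 to 2.03 (adjusted p = 0.0912). Without the second uninjured array it was 1.47 and was called (adjusted p = 0.0222), and so was the lower level of transplanted injured than of uninjured muscle, at -1.05 (adjusted p = 0.0436), against -0.81 with all arrays (adjusted p = 0.109).

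Il1r1, the receptor that signals, was dim: 25.6 and 18.7 in transplanted injured muscle, 71.5 and 71.2 in untransplanted injured muscle, 33.1 and 11.3 in uninjured muscle, and 41.0 and 9.40 in bone marrow. It reached the filter value on 3 of the 8 arrays, both of untransplanted injured muscle and the first of bone marrow. Its SE was 0.69, and the log2 difference between untransplanted injured and uninjured muscle was 1.66 with an interval of 0.08 to 3.25 (adjusted p = 0.108). That between transplanted and untransplanted injured muscle was -1.54, with an interval of -3.12 to 0.04 (adjusted p = 0.596).

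Il1rap, the accessory chain of the interleukin 1, interleukin 33 and interleukin 36 receptors, read 92.1 and 85.0 in transplanted injured muscle, 57.1 and 86.2 in untransplanted injured muscle, 195 and 62.8 in uninjured muscle, and 171 and 58.3 in bone marrow on its brightest probe set, 1421844_at. The spread within uninjured muscle and within bone marrow covered nearly the whole range over the 8 arrays, with the first array high in each. Those were the arrays with the higher Gapdh ratio in their groups, 46.9 against 13.6 in uninjured muscle and 24.4 against 10.7 in bone marrow; the part of RNA integrity in this was not tested. The probe set 1421843_at read between 22.8 and 61.3 and gave no call either, and 1449585_at was too dim to test.

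Il6 read 176 and 138 in transplanted injured muscle, 683 and 454 in untransplanted injured muscle, 595 and 369 in uninjured muscle, and 22.5 and 28.1 in bone marrow. The bone marrow arrays were under the filter value, untransplanted injured and uninjured muscle overlapped, and transplanted injured muscle lay between them and bone marrow without overlap. Il6 was at least 11.2-fold higher in uninjured muscle than in bone marrow (limma adjusted p = 0.000901). It was at least 3.78-fold higher in transplanted injured muscle and at least 13.2-fold higher in untransplanted injured muscle than in bone marrow (adjusted p = 0.00264 and 0.000281). Injury without a transplant left a log2 difference of 0.25 from uninjured muscle, with an interval of -0.64 to 1.13 (adjusted p = 0.655).

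Both transplanted arrays read lower in Il6 than every array of the other muscle groups. Against uninjured muscle the log2 difference was -1.56, with an SE of 0.39 (adjusted p = 0.0181). This call was lost without the first or the second transplanted array (adjusted p = 0.0699 and 0.117) and in a fit on those 4 arrays alone (adjusted p = 0.0581). Against untransplanted injured muscle the difference was -1.81, with an interval of -2.70 to -0.92 and an unadjusted p of 0.00152, which did not pass the adjustment over 16289 probe sets (adjusted p = 0.135). It passed in a fit on the 4 injured arrays alone (adjusted p = 0.00106) and without the first or the second uninjured array (adjusted p = 0.0349 and 0.0313). Over the 18 alternatives this difference ran from -2.10 to -1.52, with adjusted p from 0.00106 to 0.654.

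**Figure D3:**
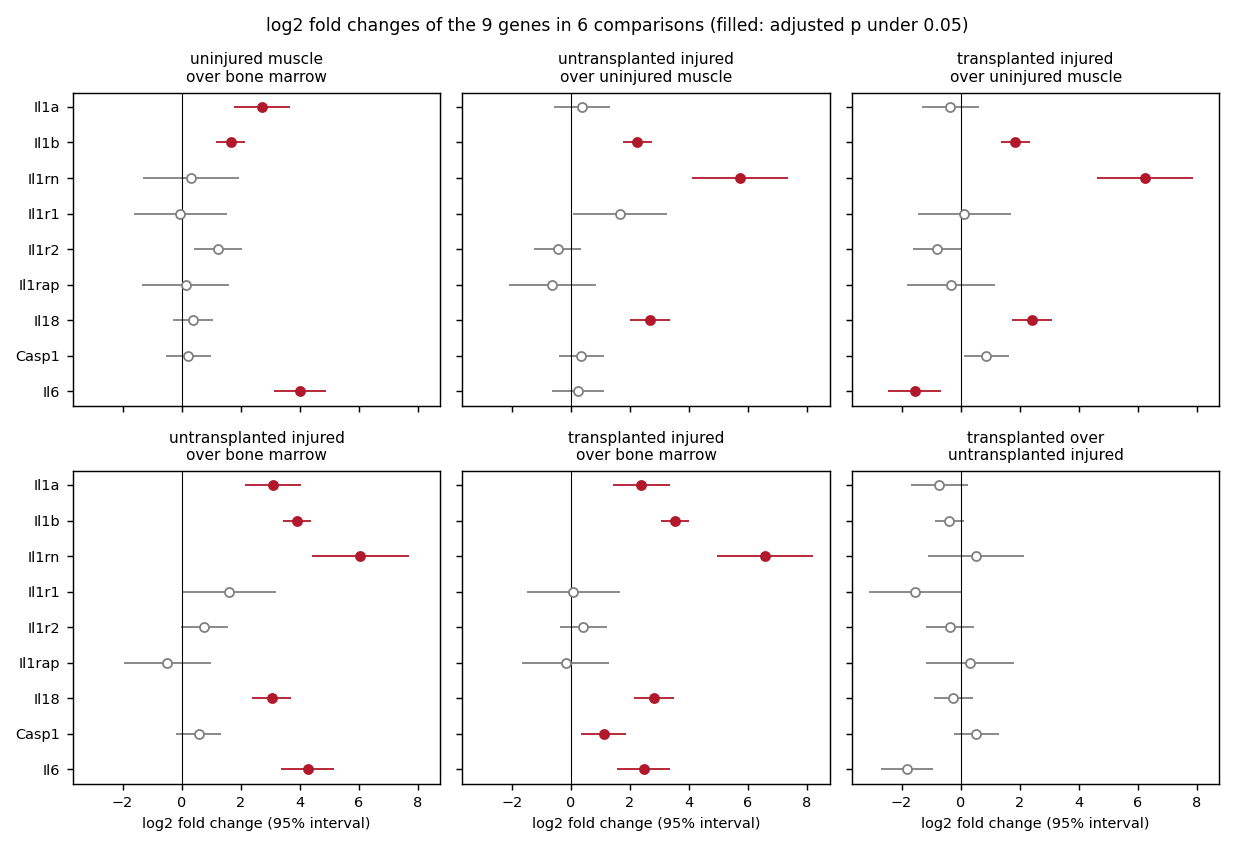
Log2 fold changes with 95% intervals (x axis) of the 9 genes (y axis) in 6 comparisons; filled points passed an adjusted p of 0.05 in limma. All calls but one are to the right of 0, and the exception is Il6 in transplanted injured over uninjured muscle at -1.56.

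Uninjured muscle against bone marrow asks how cells with this surface phenotype differ between tissues. In it 3 of the 9 genes, Il1a, Il1b and Il6, or 33.3%, were higher and none was lower, where 5.85% of 9506 tested genes were called higher and 1.4% lower. Their median log2 fold change was 0.38, beside -0.03 over all tested probe sets. For the change with injury, 3 of the 9 genes, Il1b, Il1rn and Il18, were higher in untransplanted injured than in uninjured muscle and none was lower, beside 8.77% of tested genes called higher and 15.1% lower. With the transplant, the same 3 genes were higher than in uninjured muscle and Il6 was lower, beside 10.5% of tested genes called higher and 20.8% lower. Against bone marrow, 6 of the 9 genes were higher in transplanted injured muscle, beside 12% of tested genes called higher and 19.5% lower. In untransplanted injured muscle 5 of the 9 were higher than in bone marrow, beside 12.6% called higher and 17.2% lower. The genes were Il1a, Il1b, Il1rn, Il18 and Il6 in both, and Casp1 with the transplant.

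Transplanted against untransplanted injured muscle asks what differs in the injured tissue after a bone marrow transplant. No gene of the 9 was called by limma, beside 0.316% of tested genes called in either direction. At an unadjusted p under 0.05 there was 1 of the 9, Il6, with no share of all tested genes counted at that threshold. In 7 of the 9 genes the 2 arrays of one group lay wholly above those of the other, beside 50.2% of tested probe sets. Their median log2 difference was -0.35, beside 0 over all tested probe sets. The comparisons share arrays, so their calls are not independent of each other.

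Markers of cell types in the sort moved with these genes. The summed intensity of 14 monocyte and macrophage markers was 107000 and 103000 in transplanted injured muscle, 109000 and 118000 in untransplanted injured muscle, 30200 and 52300 in uninjured muscle, and 10200 and 8680 in bone marrow. This order, with injured muscle highest and bone marrow lowest, is also that of Il1b. Of these markers 10 of 14 were called higher in untransplanted injured than in uninjured muscle and 1 lower, with none under the filter value on both arrays in either injured group. The part of macrophage number in the levels of Il1b, Il1rn and Il18 was not tested.

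The sum of 12 neutrophil markers ran the other way, at 2010 and 1840 in transplanted injured muscle, 1380 and 1380 in untransplanted injured muscle, 32000 and 18400 in uninjured muscle, and 43900 and 53600 in bone marrow. Of them 4 in transplanted and 7 in untransplanted injured muscle were under the filter value on both arrays, against 1 in uninjured muscle and 1 in bone marrow. Of 11 tested neutrophil markers, 9 were called lower and 1 higher in untransplanted injured than in uninjured muscle. Bone marrow had the highest neutrophil sum and the lowest Il1b, and the injured groups the reverse. The part of neutrophil number in the level of Il1b was not tested.

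The fibroblast sum had the group order of Il6, and the mast cell sum did not, though single mast cell markers differed. The sum of 10 fibroblast markers was 4600 and 4980 in transplanted injured muscle, 24700 and 25000 in untransplanted injured muscle, 36200 and 10800 in uninjured muscle, and 1050 and 2090 in bone marrow, which is the order of Il6 with the same overlap. Of these, 7 were under the filter value on both bone marrow arrays and none in any muscle group. The sum of 9 mast cell and basophil markers was 237 and 225 in transplanted injured muscle, 3280 and 2900 in untransplanted injured muscle, 7230 and 7070 in uninjured muscle, and 1070 and 1110 in bone marrow. It was lowest in transplanted injured muscle, below bone marrow, where Il6 was lowest in bone marrow. Cma1, however, read 92.0 and 67.1 in transplanted injured muscle against 36.7 and 40.2 in bone marrow. Tpsb2 read 21.5 and 29.6 against 6.22 and 5.04, and both were lowest in bone marrow. Mcpt8 went the other way, at 5.36 and 6.80 against 419 and 528. Of the 9 markers, 1 was called higher and 5 lower in transplanted injured muscle than in bone marrow. Of the 9 markers 6 were under the filter value on both transplanted arrays, against 2 in untransplanted injured muscle. Between transplanted and untransplanted injured muscle, 1 of the 10 fibroblast markers and 3 of the 9 mast cell markers were called lower. The part of fibroblasts or mast cells in the Il6 level was not tested.

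Of the remaining lists, 8 dendritic cell markers summed to 11400 and 11200 in transplanted injured muscle, against 37800 and 38600 in untransplanted injured muscle, 11400 and 23000 in uninjured muscle, and 14400 and 20000 in bone marrow. Most of that sum came from H2-Aa, Cd74 and H2-Ab1, the brightest of the 8 on every array. Flt3, of the same list, was highest in bone marrow, at 854 and 905, against 123 and 144 in untransplanted injured muscle. The sum of 11 endothelial markers was 912 to 969 in transplanted and 1200 to 1210 in untransplanted injured muscle, 11600 to 13200 in uninjured muscle and 1430 to 1630 in bone marrow. Muscle fibre markers, 10 in number, were brightest in uninjured muscle, at 3820 and 5710, against 275 and 278 in transplanted and 1020 and 914 in untransplanted injured muscle and 260 and 338 in bone marrow. B cell markers summed to at most 239 in injured muscle, against 3120 to 4300 in uninjured muscle and 13100 to 15900 in bone marrow. T and natural killer cell markers summed to 2320 on both transplanted arrays, against 518 and 590 in untransplanted injured muscle, 3250 and 1850 in uninjured muscle and 5570 and 6010 in bone marrow. Most of the transplanted sum was Gzma, at 1660 and 1659, against 85.1 and 73.8 in untransplanted injured muscle. Cd4 went the other way, at 5.48 and 10.4 against 122 and 133. Between these groups 1 of 10 tested markers was called higher and 0 lower, with a median log2 difference of 0.12. Satellite cell markers summed to at most 375 on any array.

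**Figure D4:**
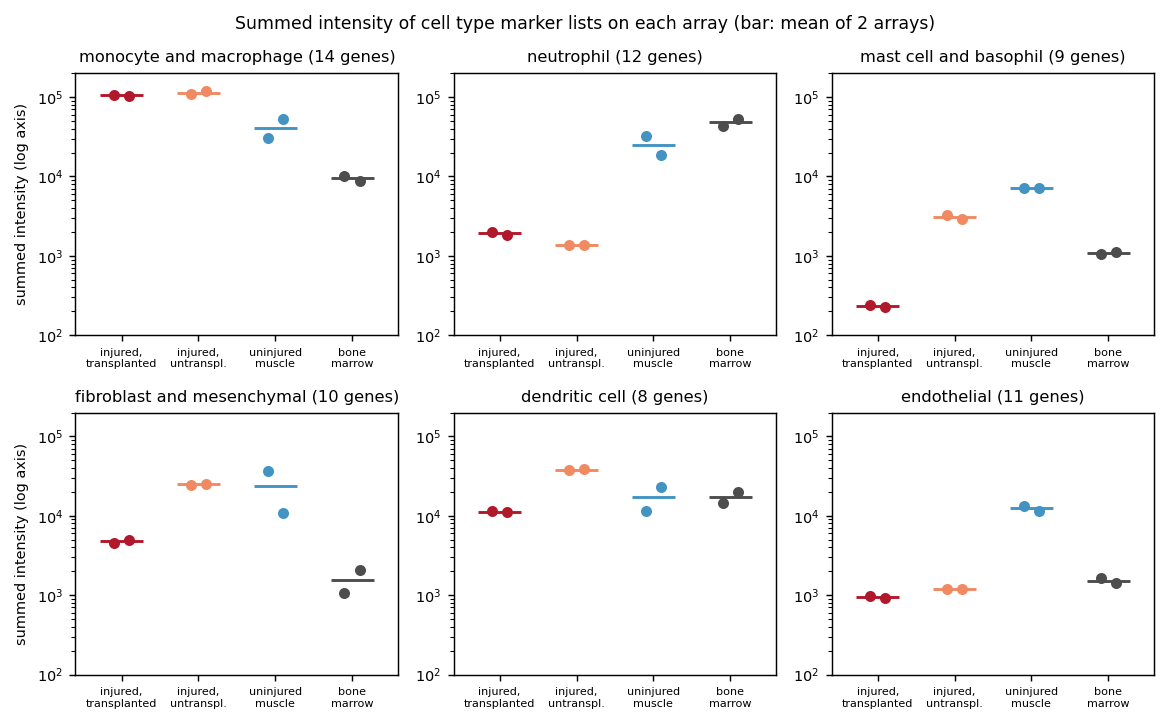
Summed intensity (log axis) of 6 cell type marker lists on each array by group; points are arrays and bars the mean of 2 arrays. The macrophage sum is highest and the neutrophil sum lowest on the 4 injured arrays, and the mast cell and fibroblast sums are lower with a transplant than in either other muscle group.

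For each gene the 3 genes most like it over the 8 arrays were found by Pearson correlation of log2 values, as a description over 8 points that share 4 groups and the RNA integrity of their arrays. Il1b was closest to Ccrl2 (r = 0.995), Clec4e (r = 0.992), a myeloid receptor for dead cells, and Hpgds (r = 0.99), a prostaglandin D synthase. Il18 was closest to Ccr2 (r = 0.994), the chemokine receptor of inflammatory monocytes, then to Lyz1 and Slc25a5 (r = 0.992 for both). Il6 was closest to Adamts4 (r = 0.998), a matrix protease, F13a1 (r = 0.994), the coagulation factor that tissue macrophages make, and Col6a2 (r = 0.992), a collagen of connective tissue.

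Il1rn was closest to Tmem11 (r = 0.999), Pik3ap1 (r = 0.997) and Slc25a30 (r = 0.996). Il1a was closest to Ptpro (r = 0.99), Cbr2 (r = 0.986) and Fcrls (r = 0.984). For Il1r2 the closest were Ahr, the dioxin receptor, Acvr1 and Fbln5 (r = 0.973 for each), and for Casp1 they were Rngtt, Psmd12 and Klra2 (r = 0.962 to 0.965). For the noisy receptors they were Emb, Bnip3 and Rhoq for Il1r1 (r = 0.947 to 0.967) and Rb1cc1, Gnai3 and Osbpl1a for Il1rap (r = 0.963 to 0.971).

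Other genes of these pathways were followed in 6 lists of 109 genes, of which 88 were on the array and 83 were tested. In uninjured muscle against bone marrow 12 of the 83 were higher and 1 lower, or 15.7% called, beside the 5.85% higher and 1.4% lower of all tested genes. In untransplanted injured against uninjured muscle 13 were higher and 18 lower, or 37.3%, beside 8.77% higher and 15.1% lower of all tested genes. With the transplant 15 were higher and 24 lower, or 47%, beside 10.5% higher and 20.8% lower. The medians of the 83 log2 fold changes were 0.24, -0.06 and -0.39 in these comparisons, beside -0.06, -0.25 and -0.31 over all tested genes. Against bone marrow 23 were higher and 15 lower in transplanted injured muscle, beside 12% higher and 19.5% lower of all tested genes, and 27 higher and 13 lower in untransplanted injured muscle, beside 12.6% and 17.2%. Between transplanted and untransplanted injured muscle none was called by limma, beside 0.316% of all tested genes. Of the 83, 14 had an unadjusted p under 0.05, with no share of all tested genes counted at that threshold. The lists' own counts are small and are to be read against these same shares of all tested genes. Where a gene had several probe sets these often disagreed: of 20 other probe sets of 12 genes called between untransplanted injured and uninjured muscle, 2 gave the same call, 13 none and 5 the opposite one. The opposite calls were on Il6st, Tollip, Ikbkb and Nfkbiz, named here after their values were seen.

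Among other ligands of the family, Il33, the alarm cytokine of stromal nuclei, read 68.6 and 66.0 in transplanted injured muscle, 113 and 108 in untransplanted injured muscle, 151 and 55.1 in uninjured muscle, and 12.4 and 10.7 in bone marrow. Both bone marrow arrays were below all others. Il33 was at least 2.26-fold higher in uninjured muscle than in bone marrow (adjusted p = 0.0187), at least 1.68-fold higher in transplanted injured muscle (adjusted p = 0.0118) and at least 2.7-fold higher in untransplanted injured muscle (adjusted p = 0.00404). Of 2 tested ligands it was the one called in uninjured muscle against bone marrow, and neither was called between injured and uninjured muscle.

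Of 4 tested receptors and binding proteins, 1 was higher and 2 lower in untransplanted injured than in uninjured muscle. Il18bp, the secreted protein that neutralises interleukin 18, read 909 and 921 in transplanted injured muscle, 642 and 665 in untransplanted injured muscle, 31.0 and 9.31 in uninjured muscle, and 26.9 and 18.5 in bone marrow. It was at least 21.7-fold higher in transplanted injured and at least 15.5-fold higher in untransplanted injured than in uninjured muscle (adjusted p = 0.000483 and 0.00104). Like Il18 itself, it was called in both injured groups and not between uninjured muscle and bone marrow. Il18r1, the ligand-binding chain of the interleukin 18 receptor, went the other way, at 26.9 and 41.2 in transplanted injured muscle and 21.2 and 34.5 in untransplanted injured muscle, against 245 and 247 in uninjured muscle and 260 and 279 in bone marrow. Relative to uninjured muscle it fell by 2.74 on the log2 scale with the transplant and fell by 3 without (adjusted p = 0.00204 and 0.00215). Sigirr, an inhibitory receptor of the family, fell by 1.47 and fell by 1.44 in the same comparisons (adjusted p = 0.0247 and 0.0319).

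Of 19 tested genes of interleukin 1 receptor signalling, none was called in uninjured muscle against bone marrow, with 2 at an unadjusted p under 0.05, and 3 were higher and 3 lower in untransplanted injured than in uninjured muscle. The share called lower was close to the 15.1% of all tested genes, and the 3 higher compare with 8.77%. Among those called lower, Tollip and Ikbkb gave log2 differences of -1.11 and -0.85 on their brightest probe sets. Another probe set of each was called higher, by 1.55 and 2.03 (limma adjusted p = 0.0422 and 0.0113). The remaining tested probe set of Ikbkb gave -1.25 without a call. Neither gene therefore has a settled direction here. Map2k3, a kinase that activates p38, was higher by 2.08, and by 1.95 on its other probe set (adjusted p = 0.00702 and 0.00824). Nfkbie, an inhibitor of NF-kappaB, was higher by 1.82 (adjusted p = 0.0153). Map3k7, the kinase TAK1, was higher by 2.29 on its brightest probe set (adjusted p = 0.0186), with no call on its 4 other tested probe sets. Map3k8, the kinase TPL2, fell by 1.70 (adjusted p = 0.0271). With the transplant the differences from uninjured muscle were 1.64 for Map2k3, 1.57 for Nfkbie and -1.89 for Map3k8 (adjusted p = 0.0131, 0.0211 and 0.0148).

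Of 17 tested inflammasome and processing genes, 1 was higher and 6 lower in untransplanted injured than in uninjured muscle, beside 8.77% and 15.1% of all tested genes, and none was called between uninjured muscle and bone marrow, where 3 had an unadjusted p under 0.05. Mefv, the gene of the inflammasome sensor pyrin, read 910 and 1022 in transplanted injured muscle, 1052 and 1150 in untransplanted injured muscle, 131 and 250 in uninjured muscle, and 92.2 and 84.2 in bone marrow. The 4 injured arrays were above the other 4, and the log2 excess over uninjured muscle was 2.39 with the transplant and 2.58 without (adjusted p = 0.00276 and 0.00322). Among the genes that fell was Ctsg, cathepsin G of neutrophil granules, at least 8.9-fold lower in either injured group than in uninjured muscle (adjusted p = 0.0032 with the transplant and 0.00525 without). Serpinb1a, an inhibitor of neutrophil serine proteases, fell by 4.54 with the transplant and fell by 2.86 without (adjusted p = 0.000784 and 0.00513). Ctsg and Serpinb1a fell where the neutrophil marker sum was 1380 to 2010, against 18400 to 32000 in uninjured muscle. Card10 encodes a scaffold of NF-kappaB signalling rather than an inflammasome protein, but was counted in this list. It was also called lower in both injured groups. Without the transplant its difference from uninjured muscle was -3.3 (adjusted p = 0.00568). With the transplant Card10 was at least 19.9-fold lower (adjusted p = 0.000854). It read 981 and 718 in uninjured muscle, against 157 and 238 in bone marrow. The part of neutrophil number in these falls was not tested.

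Nlrp3, the inflammasome sensor best known for interleukin 1 beta, was at 260 and 131 in transplanted injured muscle, 252 and 364 in untransplanted injured muscle, 448 and 554 in uninjured muscle, and 153 and 342 in bone marrow. Uninjured muscle was the highest, and uninjured muscle against bone marrow gave a log2 difference of 1.11 that did not pass the test (adjusted p = 0.266).

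Of 17 tested genes of the interleukin 6 family and its signalling, 3 were higher in uninjured muscle than in bone marrow and none was lower. Osmr, the receptor chain for oncostatin M, read 33.4 and 46.5 in transplanted injured muscle, 99.1 and 143 in untransplanted injured muscle, 656 and 274 in uninjured muscle, and 16.8 and 5.39 in bone marrow. It was at least 10.1-fold higher in uninjured muscle than in bone marrow (adjusted p = 0.00188), and relative to uninjured muscle it fell by 3.3 in transplanted and fell by 1.80 in untransplanted injured muscle (adjusted p = 0.00435 and 0.0486). Socs3, the feedback inhibitor induced through STAT3, was higher in uninjured muscle than in bone marrow by 1.92 (adjusted p = 0.00755). Its other tested probe sets gave 2.53 with a call and 1.66 without (adjusted p = 0.00454 and 0.18). Il6st, the gp130 chain, was higher by 2.53 in the same comparison on its brightest probe set (adjusted p = 0.00177). Its other tested probe sets gave 1.36 and 0.56 without a call (adjusted p = 0.183 and 0.465).

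In untransplanted injured against uninjured muscle 2 genes of this list were higher and 4 lower, but the probe sets of Il6st and Stat3 did not give one direction. The brightest probe set of Il6st gave a log2 difference of -1.24 (adjusted p = 0.0168), while its 2 other tested probe sets were higher by 2.13 and 1.75 (adjusted p = 0.0185 and 0.0133). For Stat3, the transcription factor of the pathway, the brightest probe set was higher by 3.13 (adjusted p = 0.00835) and the 2 others gave 0.68 and -0.76 without a call. Neither gene therefore has a settled direction between injured and uninjured muscle.

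Of 24 tested genes known to be induced by interleukin 1, 8 were higher and 1 lower in uninjured muscle than in bone marrow. Cxcl1, a neutrophil attractant, read 917 and 1006 in transplanted injured muscle, 1861 and 1799 in untransplanted injured muscle, 1485 and 1801 in uninjured muscle, and 10.9 and 12.1 in bone marrow. Like Il6, it was low in bone marrow and not called between untransplanted injured and uninjured muscle (adjusted p = 0.687), and it was at least 38.7-fold higher in uninjured muscle than in bone marrow (adjusted p = 4.24e-05). Csf2, the gene of GM-CSF, was at 570 and 394 in uninjured muscle, against 10.3 and 4.19 in bone marrow, at least 11.3-fold higher (adjusted p = 0.000705). It read 6.40 and 2.58 in transplanted injured muscle and 50.5 and 60.7 in untransplanted injured muscle, so it was highest in uninjured muscle.

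Ccl2, the main attractant of monocytes, was like Il1b higher in both injured groups than in uninjured muscle and lowest in bone marrow, but unlike Il1b read higher with the transplant than without, with 9842 and 9643 in transplanted injured muscle, 8395 and 8438 in untransplanted injured muscle, 1509 and 1277 in uninjured muscle, and 88.1 and 101 in bone marrow. It was higher in untransplanted injured than in uninjured muscle by 2.60 and in uninjured muscle than in bone marrow by 3.82 (adjusted p = 0.000811 and 8.84e-05). Tnfaip3, the NF-kappaB inhibitor A20, read 1610 and 847 in transplanted injured muscle, 1168 and 1712 in untransplanted injured muscle, 32.0 and 42.9 in uninjured muscle, and 26.6 and 68.7 in bone marrow. It was higher than in uninjured muscle by 4.83 with the transplant and 5.11 without (adjusted p = 0.000854 and 0.00114). Lcn2, a protein of neutrophil granules that is also on the neutrophil list, went the other way, at 51.2 and 65.2 in transplanted injured muscle and 34.1 and 31.4 in untransplanted injured muscle, against 1505 and 938 in uninjured muscle and 5581 and 4366 in bone marrow.

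The 24 genes therefore did not move as one. In untransplanted injured against uninjured muscle 6 were higher and 3 lower. The median of the 24 log2 fold changes was 0.03, beside -0.25 over all tested genes. Among those called lower, Nfkbiz had another probe set called higher, by 2.41 (limma adjusted p = 0.0148). With the transplant 7 were higher and 7 lower, with a median of -0.59 beside -0.31 over all tested genes. Between transplanted and untransplanted injured muscle none was called by limma, beside 0.316% of all tested genes. The share of all tested genes at an unadjusted p under 0.05 was not counted. No excess is therefore read from the 9 of the 24 with such a p. The smallest were those of the adhesion genes Vcam1, at 65.3 and 72.8 in transplanted against 497 and 511 in untransplanted injured muscle (adjusted p = 0.0607), and Sele, at 3.02 and 4.07 against 35.2 and 43.4 (adjusted p = 0.0769), and that of Csf2 (adjusted p = 0.0681).

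**Figure D5:**
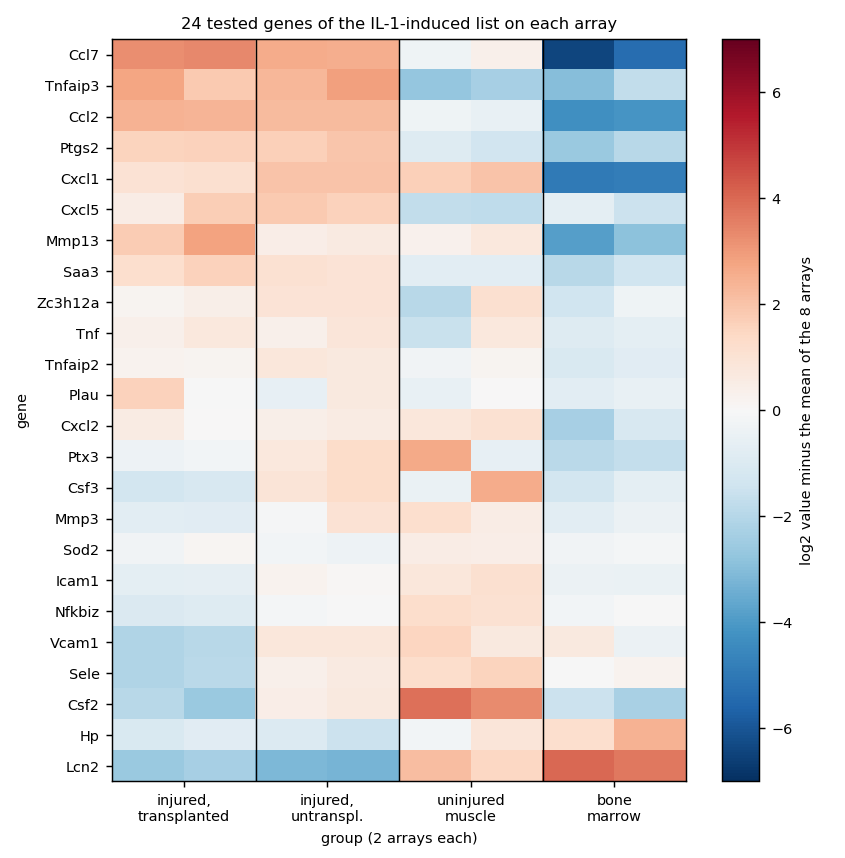
Log2 value of each array minus the mean of the 8 arrays (colour) for the 24 tested genes of the interleukin 1-induced list, with genes in rows and the 2 arrays of each group in columns. Ccl7, Tnfaip3, Ccl2 and Ptgs2 are high on the 4 injured arrays, Cxcl1 is low on the bone marrow arrays, Csf2 is high in uninjured muscle, and Lcn2 is high in bone marrow and uninjured muscle.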

How the data were processed

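RNA of CD45 and Sca1 double positive cells was measured on 8 single-colour arrays in 4 groups of 2. The deposited values are intensities on a linear scale. Their trimmed mean, with 2% left out at each end, was 250.09 to 250.12 on the 8 arrays, so they came already scaled; 1 µg of total RNA was labelled, per the labels' protocols. The submitters' processing notes name GCOS, with no version; the background and summary steps were not given in the sources used here. The number of arrays limits the precision, and log2 fold changes had a median SE of 0.45.

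Of 22690 probe sets, 64 controls were left out; 20380 of the others had 1 gene, 691 several and 1555 none, and 20351 symbols matched RefSeq's table. Values under 1 were set to 1, and log2(intensity + 4) was used, 4 being the 10th percentile. The filter value, 38.4, is the 40th percentile and not a detection limit. It left 16289 probe sets. limma 3.58.1 in R 4.3.3 fitted 1 mean per group on all 8 arrays (4 residual and a median of 4.07 prior degrees of freedom) with an intensity trend, two-sided; it was tested on simulated data. "At least" folds are against the filter value, and stand where the lower group had no array at or above it. The probe set with the highest mean stood for a gene. Counts at an unadjusted p under 0.05 were made for the members and lists only, so none of them is read as an excess. The members, lists and tests were chosen with earlier results of these data known. The genes named were the 9 members, the up to 4 genes with the smallest p of each pathway list in a comparison, and the 3 genes most like each member; a gene named in one comparison was given in others too. Promoters came from RefSeq. The 18 alternatives covered scaling, pseudocount, filter, variance model, arrays fitted, replicate block, probe set choice and each array left out. The labels do not say whether equal replicate numbers pair arrays, and the main fit had no replicate block. Deviations of equal-numbered arrays correlated at 0.313 between uninjured muscle and bone marrow and at -0.0317 to 0.0031 between the other groups. The source of the 0.313 was not tested.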

Additional observations from a re-analysis of the deposited data

How the results depend on the processing

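Of the 9 genes, the count called stayed within 1.5 times its value under all 18 alternatives in 4 of the 6 comparisons. In a fit on the 4 arrays compared, 1 of the 9 rather than 3 was called in uninjured muscle against bone marrow (Il6), and 2 rather than 0 between transplanted and untransplanted injured muscle (Il6 and Il1rn, the adjusted p of Il1rn being 0.0461). Leaving out 1 array gave 0 to 1 between transplanted and untransplanted injured muscle, the 1 being Il6 without either uninjured array, and 3 to 4 for uninjured muscle against bone marrow. The calls of Il1b, Il1rn and Il18 between injured and uninjured muscle held under every alternative. For single genes adjusted p over the alternatives ran from 0.00135 to 0.109 for Il1b and 0.00565 to 0.0596 for Il1a in uninjured muscle against bone marrow, 0.015 to 0.158 for Casp1 in transplanted injured muscle against bone marrow, and 0.00563 to 0.117 for Il6 in transplanted injured against uninjured muscle. Il1a and Il1r1 gave no value with the filter at the 60th percentile.

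Pathway genes called fell to 6 from 13 in uninjured muscle against bone marrow and to 20 from 31 in untransplanted injured against uninjured muscle in the fit on 4 arrays. Between transplanted and untransplanted injured muscle they numbered 12 in that fit, 1 with no intensity trend and 1 with the mean of a gene's probe sets, against 0. With 1 array left out they ran from 9 to 26 in uninjured muscle against bone marrow (26 without the second uninjured array), 13 to 44 in untransplanted injured against uninjured muscle, 22 to 48 in transplanted injured against uninjured muscle, 22 to 49 in transplanted and 23 to 50 in untransplanted injured muscle against bone marrow, and 0 to 1 between the injured groups (1 without either uninjured array); against uninjured muscle or bone marrow the lowest counts of an injured group came without one of its own arrays. Probe sets called over the alternatives ran from 288 to 3121 (991 in uninjured muscle against bone marrow), 1323 to 6067 (4235 in untransplanted injured against uninjured muscle), 2402 to 6744 (5283 with the transplant), 2592 to 7205 (5297) and 2295 to 7018 (5040) for transplanted and untransplanted injured muscle against bone marrow, and 0 to 1125 (41) between the injured groups. Quantile normalization left 2 higher and 7 lower between the injured groups. That was 22.2% higher, in place of 9.76% of the 41. With the replicate block, 3 of the 9 genes were called in uninjured muscle against bone marrow, 3 in untransplanted and 4 in transplanted injured against uninjured muscle, 6 in transplanted and 5 in untransplanted injured muscle against bone marrow and 0 between the injured groups, with no call changed; probe sets called between the injured groups numbered 15 in place of 41. The causes were not tested. With 2 arrays a group, dim probe sets such as Il1r1 could show only large differences.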
